A study of Mus musculus with 12 samples.

Results

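Sodium lactate was set against sodium chloride in macrophages kept at low oxygen. The comparison takes 6 of the 12 libraries of the study, chosen by their labels: hypoxia-lactate 1 to 3 (1% oxygen, 25 mM sodium lactate) and hypoxia-NaCl 1 to 3 (1% oxygen, 25 mM NaCl). All cells were macrophages grown from the bone marrow of C57BL/6 mice as a primary culture and taken on day 7, with no allele or transgene named. The other 6 libraries, normoxia-lactate 1 to 3 and normoxia-NaCl 1 to 3, received the same salts in ordinary oxygen. The labels do not state how long the cells spent in low oxygen or with lactate, or whether the replicates of a group are separate mice, separate cultures or repeats of 1 culture. The p-values therefore cover the variation among these particular samples, some of which may be technical. Bone marrow-derived macrophages are a culture model that lacks the tumour cells, vessels and matrix of a tissue, and NaCl matches the sodium of the lactate salt but not the organic anion.

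Lactate is the end product of glycolysis when pyruvate is reduced by lactate dehydrogenase, and it crosses membranes together with a proton through monocarboxylate transporters. At low oxygen the hypoxia-inducible factors (HIF) are stabilised and raise genes of glucose uptake, glycolysis and lactate export, so a hypoxic macrophage already makes and exports lactate of its own before any is added. In poorly perfused tumour regions macrophages meet low oxygen and lactate together, and lactate is known for shifting macrophages towards alternative activation and angiogenic factors.

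Between 22705978 and 49885085 reads per library were counted in genes. Library hypoxia-lactate 3 stood apart before any test. It had the lowest total. A minimum of 10 counts was reached by 11437 genes there and by 13198 to 14767 genes elsewhere, and mitochondrially encoded genes gave 0.486% of its counts and 2.04% to 4.75% elsewhere. Over 8620 genes its log2 level differed from the mean of the other 5 hypoxia libraries with an SD of 1.23, where each of those 5 had 0.279 to 0.41. It was more than 4-fold above them for 293 genes and more than 10-fold below for 67. Most counts and log2 values are therefore given both with all 12 libraries and without hypoxia-lactate 3, which leaves 2 lactate libraries against 3 of NaCl. Among the rest, normoxia-NaCl 1 had the fewest genes with 10 counts (13198) and the highest mitochondrially encoded share (4.75%). The oxygen labels held: Egln3, a HIF prolyl hydroxylase that HIF itself raises, had 127, 142 and 118 CPM (counts scaled to library size by the TMM method) in hypoxia-lactate and 101, 101 and 129 CPM in hypoxia-NaCl, far above the means of 6.18 CPM in normoxia-lactate and 3.66 CPM in normoxia-NaCl. Its values at 1% oxygen overlap between lactate and NaCl, so they do not check the lactate labels. The 12 macrophage markers summed to 46700, 46300 and 41900 CPM in hypoxia-lactate and 47800, 46300 and 35300 CPM in hypoxia-NaCl. Neutrophil markers summed to 166 to 244 CPM in hypoxia-lactate and 127 to 202 CPM in hypoxia-NaCl, mostly from Mmp8 (157 to 217 CPM and 123 to 171 CPM), while Mpo and Camp were at 0 counts in all 3 hypoxia-lactate libraries and Mpo had 16, 69 and 3 counts in hypoxia-NaCl. Lymphocyte markers summed to 1.14 to 2.4 CPM in hypoxia-lactate and 0.965 to 3.14 CPM in hypoxia-NaCl, with Cd3e, Cd3g, Cd8a, Ms4a1 and Nkg7 at 0 counts in all 6 libraries. In such bulk libraries fewer cells of a kind and less RNA per cell cannot be told apart.

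With all 12 libraries, edgeR's quasi-likelihood test called 0 of 14616 genes at a Benjamini-Hochberg (BH) adjusted p below 0.05 (0.0% called), and the smallest adjusted p was 0.325. At an unadjusted p below 0.05 there were 1664 genes (11.4%), 1068 of them higher with lactate (7.31%) and 596 lower (4.08%). With upper-quartile scaling that split was 581 higher and 673 lower, and the median log2 fold change over all genes was -0.148, against -0.0315 with TMM scaling. DESeq2 called 51 genes higher and 61 lower, limma-voom 0, and limma-voom with weights for library quality 11 higher and 5 lower. The weight given to hypoxia-lactate 3 there was 0.048198, the lowest of the 12. Without hypoxia-lactate 3 libraries of a group varied with a common coefficient of variation of 24.309%, against 38.248% with all libraries. In that fit edgeR called 6 of 15088 genes (0.0398%), 3 higher and 3 lower, and 1418 genes (9.4%) had an unadjusted p below 0.05, 638 higher (4.23%) and 780 lower (5.17%). Beside these 6, Hspa1b, C1qb, Mertk, Flt1, Dusp4, Prdx5, Ifitm6 and Prpsap2 and further members of the lists were picked after their values were seen.

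Procr (ENSMUSG00000027611) encodes the endothelial protein C receptor, a membrane protein that presents protein C for activation. It had 149, 153 and 206 CPM in hypoxia-lactate and 80.8, 68.5 and 57.3 CPM in hypoxia-NaCl. All 3 lactate libraries lay above all 3 NaCl libraries, hypoxia-lactate 3 highest. Procr rose with lactate by 1.14 ± 0.17 on the log2 scale (SE; edgeR BH-adjusted p = 0.0402) without hypoxia-lactate 3, and its value was 1.30 ± 0.20 with all libraries (adjusted p = 0.325). Layn (ENSMUSG00000060594), layilin, a C-type lectin receptor for hyaluronan in the matrix, had 70.1, 93.5 and 21.7 CPM in hypoxia-lactate and 34.8, 34.0 and 24.6 CPM in hypoxia-NaCl. Here hypoxia-lactate 3 was the lowest of the 6 and the other 2 lactate libraries the highest. Layn rose by 1.40 ± 0.19 without hypoxia-lactate 3 (edgeR BH-adjusted p = 0.0402), against 0.99 ± 0.39 with it (adjusted p = 0.432). Gm14111 (ENSMUSG00000080870), which also rose, is annotated as a processed pseudogene and was named after its values were seen. Its levels were 17.3, 23.0 and 10 CPM in hypoxia-lactate and 2.83, 2.70 and 2.41 CPM in hypoxia-NaCl, with no overlap, and the log2 rise was 2.93 ± 0.41 without hypoxia-lactate 3 (edgeR BH-adjusted p = 0.0402), against 2.66 ± 0.48 with it (adjusted p = 0.333). Reads of a processed pseudogene may belong to its parent gene, so this count is uncertain.

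Cd33 (ENSMUSG00000004609), a sialic acid-binding lectin of myeloid cells that carries inhibitory motifs in humans, fell with lactate. It had 3.99, 3.30 and 2.91 CPM in hypoxia-lactate and 11.1, 9.38 and 11.4 CPM in hypoxia-NaCl, so that every lactate library was under every NaCl library. The log2 change was -1.53 ± 0.23 without hypoxia-lactate 3 (edgeR BH-adjusted p = 0.0465) and -1.64 ± 0.28 with it (adjusted p = 0.325). Rab3il1 (ENSMUSG00000024663), an exchange factor that activates Rab GTPases of vesicle transport, had 10.8, 10.7 and 18.2 CPM in hypoxia-lactate and 29.5, 25.2 and 45.2 CPM in hypoxia-NaCl. The groups did not overlap, and Rab3il1 fell by 1.63 on the log2 scale (SE 0.24; edgeR BH-adjusted p = 0.0402) without hypoxia-lactate 3, with a value of -1.34 ± 0.28 with all libraries (adjusted p = 0.378). Mcrip1 (ENSMUSG00000061111), a protein that binds the CtBP corepressor under the control of ERK signalling, had 22.0, 20.4 and 15.9 CPM in hypoxia-lactate and 39.7, 41.1 and 44.7 CPM in hypoxia-NaCl. All its lactate values were under all of its NaCl values, with a log2 change of -0.97 ± 0.14 without hypoxia-lactate 3 (edgeR BH-adjusted p = 0.0402) and -1.10 ± 0.19 with it (adjusted p = 0.325). Of the 6 genes, Procr, Gm14111, Cd33, Rab3il1 and Mcrip1 had groups that did not overlap with all 6 libraries, and Layn did not overlap only without hypoxia-lactate 3. All 3 hypoxia-lactate libraries lay above all 3 of hypoxia-NaCl for 6.69% of tested genes and below them for 9.3%. The 6 genes were called in a fit that held 5 of these 6 libraries, so their lack of overlap there is no added support. Only the values of hypoxia-lactate 3 were not used in the calls.

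**Figure D1:**
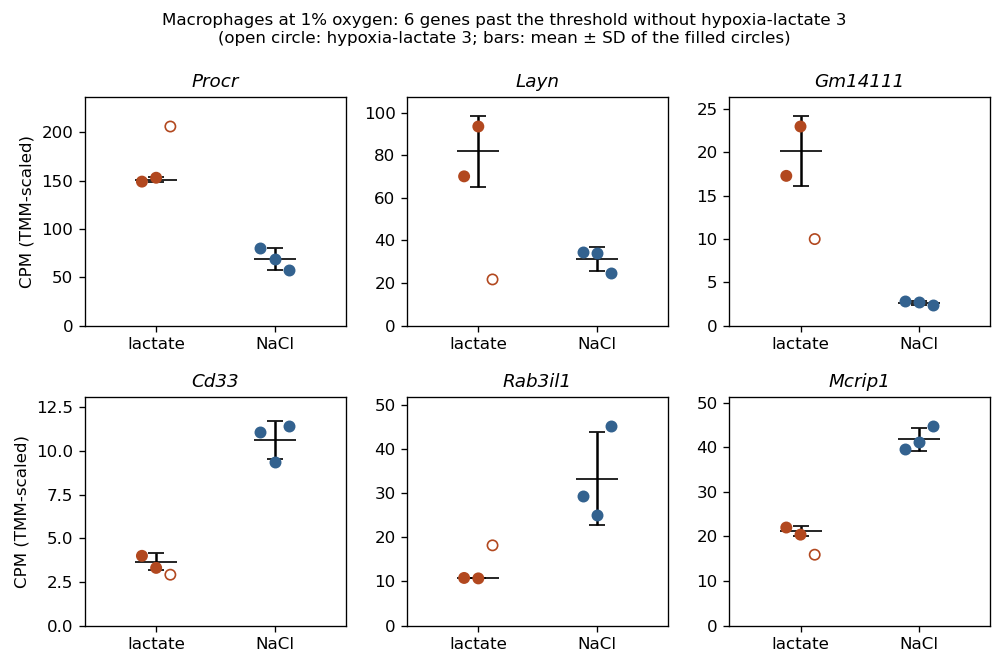
Levels of the 6 genes past the threshold without hypoxia-lactate 3, in TMM-scaled CPM (linear axis starting at 0), with the lactate libraries left and the NaCl libraries right at 1% oxygen. Each circle is 1 library, the open circle is hypoxia-lactate 3, and bars give the mean and SD of the filled circles; Procr shows 149 and 153 CPM with lactate, with NaCl values of 57.3 to 80.8 CPM, and Layn is the gene whose open circle falls below the NaCl values.

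The 6 calls rested on few libraries. When any other hypoxia library or any normoxia-lactate library was left out beside hypoxia-lactate 3, edgeR called 0 genes. Leaving out normoxia-NaCl 1 instead gave 11 calls, normoxia-NaCl 2 gave 5 and normoxia-NaCl 3 gave 1 (Gm14111). Over these and the other alternatives without hypoxia-lactate 3, 17 in all, the direction of each of the 6 genes held, with log2 values of 1.02 to 1.27 for Procr, 1.18 to 1.58 for Layn and 2.68 to 3.11 for Gm14111. The values were -1.69 to -1.40 for Cd33, -1.80 to -1.35 for Rab3il1 and -1.04 to -0.91 for Mcrip1. Their adjusted p ranged up to 0.33.

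Promoters of a called gene in each direction are shown as RefSeq gives them in GRCm38.p6, 250 bases up to the transcription start, 5′ to 3′ on the strand of the gene. Of the 6 genes, 4 had an entry. Motifs were searched on both strands: ACGTG and GCGTG, cores of the element bound by HIF, TGACGTCA, bound by CREB, and TGACTCA, bound by AP-1. Procr lies on the plus strand at chr2:155750967-155751216 and holds 1 TGACTCA, in capitals, a motif found in 4.46% of 32851 promoter windows of the same length. With the bases after it, that site also matches TGACNNNGC, the core of the element bound by NRF2. TGACNNNGC was searched as well and is found in 10.2% of promoters. Mcrip1 lies on the minus strand at chr11:120549728-120549977 and holds the ACGTG core on both strands of 1 palindrome and 1 GCGTG, also in capitals; ACGTG is found in 16.6% and GCGTG in 28.2% of promoters. The windows of Layn and Cd33 held none of the 4 motifs. A match is a description of these letters and not evidence that a factor binds there.

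Procr: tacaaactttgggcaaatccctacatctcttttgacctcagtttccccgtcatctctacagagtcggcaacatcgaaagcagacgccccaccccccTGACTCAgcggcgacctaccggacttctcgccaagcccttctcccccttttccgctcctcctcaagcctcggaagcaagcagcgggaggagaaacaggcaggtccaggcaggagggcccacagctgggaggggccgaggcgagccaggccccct

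Mcrip1: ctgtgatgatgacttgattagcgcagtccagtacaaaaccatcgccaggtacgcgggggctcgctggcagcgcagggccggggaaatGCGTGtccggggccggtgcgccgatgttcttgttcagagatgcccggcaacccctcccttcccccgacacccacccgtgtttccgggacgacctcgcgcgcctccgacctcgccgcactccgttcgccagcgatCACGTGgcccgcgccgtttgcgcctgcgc

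No single gene of lactate handling passed the threshold. Ldha, lactate dehydrogenase A, which favours lactate formation, had 1830, 1760 and 3460 CPM in hypoxia-lactate and 1830, 1620 and 2040 CPM in hypoxia-NaCl. Apart from hypoxia-lactate 3 the 2 groups overlapped, and the log2 value was 0.36 ± 0.29 with all libraries and -0.02 ± 0.23 without that library. Slc16a3 encodes MCT4, the exporter of glycolytic cells, and had 521, 494 and 1300 CPM in hypoxia-lactate and 444, 320 and 486 CPM in hypoxia-NaCl. Every lactate library was above every NaCl library, but the log2 value of 0.89 ± 0.36 with all libraries was 0.29 ± 0.25 without hypoxia-lactate 3. Slc16a1 encodes MCT1, which carries lactate both ways, and had 16.2, 13.7 and 5.10 CPM in hypoxia-lactate and 16.1, 14.7 and 14.2 CPM in hypoxia-NaCl, the same range save for hypoxia-lactate 3. Ldhb, the subunit that favours lactate oxidation, had 1.27, 2.51 and 1.48 CPM in hypoxia-lactate and 2.94, 3.20 and 4.18 CPM in hypoxia-NaCl, without overlap. Its log2 value was -0.86 ± 0.33 without hypoxia-lactate 3 (edgeR BH-adjusted p = 0.45) and -0.96 ± 0.37 with it. Slc16a7, the transporter MCT2, had 9.46, 6.79 and 0.0593 CPM in hypoxia-lactate and 10.6, 11.8 and 15.0 CPM in hypoxia-NaCl. Ldhb and Slc16a7 were the 2 of 10 tested genes of lactate uptake, export and interconversion that were lower at an unadjusted p below 0.05 without hypoxia-lactate 3 (20%, against 5.17% of all genes). With all libraries 1 was higher and 1 lower (10% each, against 7.31% and 4.08% of all genes). The lactate receptor gene Hcar1 was counted at 0 CPM in all 3 hypoxia-lactate libraries and at no more than 0.0643 CPM in hypoxia-NaCl, too few for a test. Acss2, the cytosolic synthetase that turns acetate into acetyl-CoA, had 26.5, 29.4 and 40.6 CPM in hypoxia-lactate and 15.4, 16.1 and 12.4 CPM in hypoxia-NaCl. These groups did not overlap, and the log2 value was 0.94 ± 0.17 without hypoxia-lactate 3 (edgeR BH-adjusted p = 0.107) and 1.13 ± 0.23 with it. Acss2 was singled out after its values were seen.

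Glycolysis and HIF genes had higher medians with hypoxia-lactate 3 than without it. Of 23 genes of glycolysis and glucose uptake, 5 were higher and 0 lower at an unadjusted p below 0.05 with all libraries (21.7% higher, against 7.31% of all genes), with a median log2 value of 0.38. Without hypoxia-lactate 3, 1 was higher, 4.35% and close to the 4.23% of all genes, and the median was 0.06. Pfkp, the platelet form of phosphofructokinase, had 279, 243 and 660 CPM in hypoxia-lactate and 189, 163 and 258 CPM in hypoxia-NaCl, with log2 values of 0.95 ± 0.33 and, without hypoxia-lactate 3, 0.36 ± 0.19. The glucose transporter Slc2a1 had 304, 313 and 529 CPM in hypoxia-lactate and 286, 231 and 366 CPM in hypoxia-NaCl, overlapping groups. Of 25 other HIF targets the median was 0.37 with all libraries and 0.03 without hypoxia-lactate 3, in which fit 2 were higher at an unadjusted p below 0.05 (8.0%, against 4.23% of all genes). With all libraries 4 were higher and 1 lower (16.0% and 4.0%, against 7.31% and 4.08% of all genes). Ddit4, an inhibitor of mTORC1, was among the 2 higher without hypoxia-lactate 3 but not among the 4 with all libraries. Its levels were 28.8, 37.9 and 9.20 CPM in hypoxia-lactate and 10.8, 17.0 and 10.7 CPM in hypoxia-NaCl. The first 2 lactate libraries stood above all of NaCl and hypoxia-lactate 3 below them, and the log2 value was 1.39 ± 0.38 without it (edgeR BH-adjusted p = 0.296) and 0.98 ± 0.51 with it. Vegfa, the vascular growth factor, had 252, 265 and 687 CPM in hypoxia-lactate and 181, 201 and 221 CPM in hypoxia-NaCl. No lactate library was under an NaCl library, and the log2 value was 1.00 ± 0.36 with all libraries (edgeR BH-adjusted p = 0.432) and 0.37 ± 0.22 without hypoxia-lactate 3 (adjusted p = 0.634). Hif1a itself had 58.9, 61.0 and 35.4 CPM in hypoxia-lactate and 38.1, 43.6 and 36.0 CPM in hypoxia-NaCl, a log2 value of 0.62 ± 0.15 without hypoxia-lactate 3 (edgeR BH-adjusted p = 0.248) and 0.40 ± 0.22 with it. Flt1, which encodes VEGF receptor 1, had 16.4, 11.8 and 29.5 CPM in hypoxia-lactate and 7.56, 6.74 and 6.11 CPM in hypoxia-NaCl, with no overlap (log2 value 1.06 ± 0.23 without hypoxia-lactate 3, edgeR BH-adjusted p = 0.201, and 1.5 ± 0.35 with it). The 13 mitochondrially encoded genes had median log2 values of -0.21 with all libraries and 0.27 without hypoxia-lactate 3, and 0 of them had an unadjusted p below 0.05 in either fit.

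Genes of resident macrophage identity were the list with the largest share of lower members without hypoxia-lactate 3, among the lists in the plot of shares by list. Of 23 tested, 10 were lower at an unadjusted p below 0.05 and 0 higher, 43.5% against 5.17% of all genes, with a median log2 value of -0.37 against 0.00714 over all genes. With all libraries 4 were lower (17.4%, against 4.08% of all genes) and the median was -0.07, and with RLE scaling of all libraries the median was 0.02. Cd33, described above, was the member that passed the threshold. C1qa, a chain of complement C1q, had 11.9, 7.95 and 73.9 CPM in hypoxia-lactate and 33.3, 20.7 and 71.9 CPM in hypoxia-NaCl. Its first 2 lactate libraries were under all of NaCl and hypoxia-lactate 3 was above them, and the log2 value was -2.07 ± 0.47 without that library (edgeR BH-adjusted p = 0.215) and -0.43 ± 0.69 with it. C1qb had 148, 104 and 428 CPM in hypoxia-lactate and 344, 215 and 524 CPM in hypoxia-NaCl. There too the first 2 lactate libraries were the lowest, and hypoxia-lactate 3 was inside the NaCl range. Mertk, the receptor kinase that clears apoptotic cells, had 6.19, 7.77 and 16.0 CPM in hypoxia-lactate and 14.5, 11.3 and 26.6 CPM in hypoxia-NaCl, with a log2 value of -1.32 ± 0.31 without hypoxia-lactate 3 (edgeR BH-adjusted p = 0.248) and -0.81 ± 0.39 with it. The transcription factor Maf had 33.2, 40.3 and 52.7 CPM in hypoxia-lactate and 53.9, 56.3 and 103 CPM in hypoxia-NaCl. For Maf all 3 lactate libraries were under all 3 of NaCl, as they were for Adgre1, the F4/80 antigen, with 594, 592 and 770 CPM against 843, 804 and 1050 CPM, and for the signalling adaptor Tyrobp, with 434, 430 and 352 CPM against 644, 649 and 624 CPM. Csf1r, the receptor of the growth factor these cells depend on, did not follow them, with 7410, 6610 and 10300 CPM in hypoxia-lactate and 7820, 6290 and 6330 CPM in hypoxia-NaCl.

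Further genes with low lactate values were among those with the smallest p and were chosen after their values were seen. Lgals9, galectin-9, a sugar-binding protein secreted by macrophages, had 9.46, 12.6 and 7.18 CPM in hypoxia-lactate and 22.9, 24.2 and 27.9 CPM in hypoxia-NaCl. The groups stood apart, and the log2 value was -1.17 ± 0.22 without hypoxia-lactate 3 (edgeR BH-adjusted p = 0.146) and -1.35 ± 0.26 with it. Ms4a7, a membrane protein of tissue macrophages, had 83.3, 71.2 and 77.7 CPM in hypoxia-lactate and 199, 143 and 403 CPM in hypoxia-NaCl, the NaCl values varying most. Gab1, a docking protein of receptor kinases, had 7.43, 4.69 and 2.97 CPM in hypoxia-lactate and 13.1, 14.2 and 20.9 CPM in hypoxia-NaCl, and the membrane protease Adam19 had 3.99, 3.34 and 5.22 CPM and 10.9, 11.2 and 19.4 CPM in the same order. Tmem106a, a membrane protein of macrophages, had 190.0, 181 and 210.0 CPM in hypoxia-lactate and 297, 261 and 338 CPM in hypoxia-NaCl. None of these groups overlapped, and none of these genes passed the threshold (edgeR BH-adjusted p of 0.146 to 0.278 without hypoxia-lactate 3).

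Alternative activation, the state that lactate is best known for, gave few counts. Of 17 tested genes 1 was higher and 2 lower at an unadjusted p below 0.05 without hypoxia-lactate 3 (5.88% and 11.8%, against 4.23% and 5.17% of all genes), and the median log2 value was -0.18. With all libraries 2 of 16 were higher and 2 lower (12.5% each, against 7.31% and 4.08% of all genes), with a median of -0.29. Arg1, arginase 1, had 0, 1.16 and 0.119 CPM in hypoxia-lactate and 0.163, 0.031 and 0.611 CPM in hypoxia-NaCl, too low to enter the test with all libraries. Mrc1, the mannose receptor CD206, had 3.10, 5.89 and 1.25 CPM in hypoxia-lactate and 7.63, 8.35 and 13.4 CPM in hypoxia-NaCl, all lactate values under all NaCl values. Its log2 value was -1.12 ± 0.31 without hypoxia-lactate 3 (edgeR BH-adjusted p = 0.3) and -1.51 ± 0.45 with it (adjusted p = 0.432). Tgm2, a transglutaminase, had 62.1, 51.4 and 60.2 CPM in hypoxia-lactate and 101, 82.2 and 103 CPM in hypoxia-NaCl, again apart. The member that was higher, Folr2, folate receptor beta, had 178, 165 and 136 CPM in hypoxia-lactate and 116, 115 and 123 CPM in hypoxia-NaCl, with a log2 value of 0.55 ± 0.16 without hypoxia-lactate 3 (edgeR BH-adjusted p = 0.341) and 0.44 ± 0.18 with it.

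**Figure D2:**
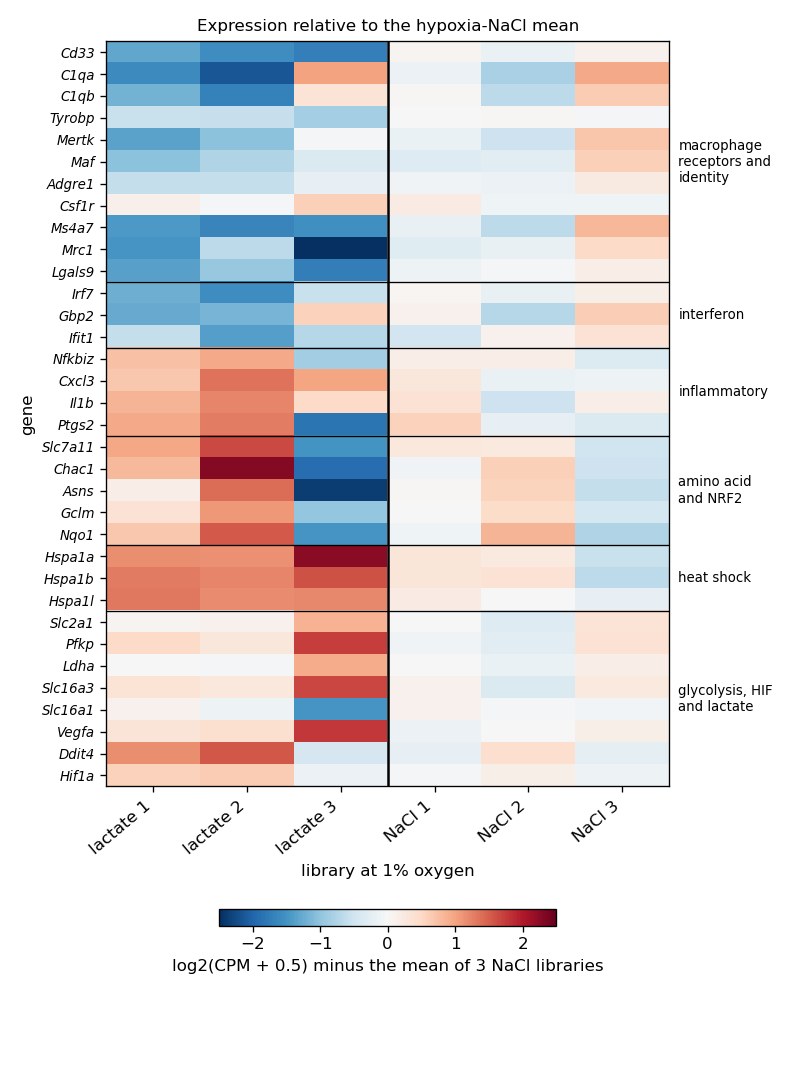
Levels of the genes of each described group in the 6 libraries at 1% oxygen, lactate left and NaCl right, as log2(CPM + 0.5) minus the mean of the 3 NaCl libraries on a colour scale that ends at 2.5 either way. Libraries lactate 1 and lactate 2 have like colours in most rows, and lactate 3 has the opposite colour for C1qa (73.9 CPM), Slc7a11 (9.73 CPM) and Ptgs2 (0.712 CPM) but the same colour for Cd33, Mrc1 and the Hspa1 genes.

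Interferon-stimulated genes were mostly under their NaCl levels. Without hypoxia-lactate 3, 24 of 27 tested had a negative log2 value, with a median of -0.33, where 50.9% of all genes were positive. At an unadjusted p below 0.05, 6 were lower and 0 higher (22.2% lower, against 5.17% of all genes). With all libraries 4 were lower (14.8%, against 4.08% of all genes) and 0 higher, and the median was -0.22. All 3 lactate libraries lay under all 3 of NaCl for 10 of 27, against 9.3% of all genes. Irf7, the factor that amplifies interferon production, had 3.75, 2.89 and 6.29 CPM in hypoxia-lactate and 9.77, 8.23 and 10.5 CPM in hypoxia-NaCl, without overlap, and a log2 value of -1.51 ± 0.30 without hypoxia-lactate 3 (edgeR BH-adjusted p = 0.165) and -1.15 ± 0.37 with it. Ifit1, which binds foreign RNA, had 1.72, 0.788 and 1.54 CPM in hypoxia-lactate and 1.92, 3.10 and 3.83 CPM in hypoxia-NaCl. For Gbp2, a guanylate-binding protein, hypoxia-lactate 3 departed from the others, with 3.78, 4.05 and 14.7 CPM in hypoxia-lactate and 10.6, 5.71 and 15.1 CPM in hypoxia-NaCl. Genes of MHC class II presentation had a median log2 value of -0.60 without hypoxia-lactate 3, with 9 of 12 negative, and of -0.22 with it, with 10 of 12 negative. H2-Aa, a class II alpha chain, had 421, 68.5 and 648 CPM in hypoxia-lactate and 714, 132 and 619 CPM in hypoxia-NaCl, so that library 2 was lowest in both groups. Of the 12 tested members 1 was higher and 1 lower at an unadjusted p below 0.05 without hypoxia-lactate 3 (8.33% each, against 4.23% and 5.17% of all genes). The lower one, H2-DMb2, a chain of the peptide-loading factor H2-DM, had 10.6, 7.24 and 3.32 CPM in hypoxia-lactate and 16.0, 9.62 and 18.2 CPM in hypoxia-NaCl, groups that overlapped. The higher one, H2-Ob, a subunit of the inhibitor H2-O, had 4.61, 2.29 and 0.653 CPM in hypoxia-lactate and 1.30, 1.40 and 1.09 CPM in hypoxia-NaCl.

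Pro-inflammatory genes had more higher than lower members. Of 22 tested, 7 were higher and 1 lower at an unadjusted p below 0.05 without hypoxia-lactate 3 (31.8% higher, against 4.23% of all genes). With all libraries 3 were higher and 1 lower (13.6% and 4.55%, against 7.31% and 4.08% of all genes). The median log2 values were 0.20 and 0.06, and -0.08 with upper-quartile scaling of all libraries. Without hypoxia-lactate 3, 17 of 22 were positive and 5 negative, and with all libraries 12 were positive and 10 negative. The members named next, Nfkbiz to Nos2, were all positive without hypoxia-lactate 3, and the 1 lower member is not among them. Nfkbiz, a nuclear regulator of NF-kappa B targets, had 55.9, 64.5 and 18.0 CPM in hypoxia-lactate and 37.6, 37.6 and 26.3 CPM in hypoxia-NaCl, with a log2 value of 0.84 ± 0.22 without hypoxia-lactate 3 (edgeR BH-adjusted p = 0.279) and 0.45 ± 0.38 with it. Cxcl3, a neutrophil chemokine, had 6.23, 10.3 and 7.95 CPM in hypoxia-lactate and 4.65, 3.29 and 3.41 CPM in hypoxia-NaCl, and the cytokine gene Il1b had 5.44, 7.13 and 4.09 CPM and 3.73, 1.80 and 3.18 CPM in the same order. For Cxcl3, Il1b and Tnf every lactate library was above every NaCl library, Tnf with 24.4, 20.8 and 24.8 CPM in hypoxia-lactate and 16.9, 16.7 and 13.4 CPM in hypoxia-NaCl. Ptgs2, cyclooxygenase 2, had 7.84, 9.98 and 0.712 CPM in hypoxia-lactate and 5.93, 3.23 and 2.83 CPM in hypoxia-NaCl, hypoxia-lactate 3 lowest. Nos2, inducible nitric oxide synthase, had 6.16, 1.80 and 0.593 CPM in hypoxia-lactate and 1.63, 0.559 and 0.90 CPM in hypoxia-NaCl. Neutrophil markers, whose sums are given above, overlapped between the groups; their part in these values was not tested. Of 15 genes of chemokine receptors and trafficking 3 were higher at an unadjusted p below 0.05 both with and without hypoxia-lactate 3 (20%, against 7.31% and 4.23% of all genes), among those without it Cmklr1, the chemerin receptor, with 18.9, 17.7 and 25.5 CPM in hypoxia-lactate and 13.1, 11.6 and 7.94 CPM in hypoxia-NaCl.

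Amino acid supply and antioxidant genes were mostly positive in value. Of 24 genes of the ATF4 response, by which cells short of amino acids or under stress raise transporters and synthetases, 22 had a positive log2 value without hypoxia-lactate 3, against 50.9% of all genes, with a median of 0.40, and 3 of them had an unadjusted p below 0.05 (12.5%, against 4.23% of all genes). With all libraries 20 were positive, 4 were higher at that p (16.7%, against 7.31% of all genes) and the median was 0.33. Of 18 NRF2 antioxidant genes 5 were higher without hypoxia-lactate 3 (27.8%), with a median of 0.29, and 1 with all libraries (5.56%, against 7.31% of all genes), with a median of 0.30. The ATF4 list summed to 1500.0, 2040.0 and 2070.0 CPM in hypoxia-lactate and 1390.0, 1570.0 and 1190.0 CPM in hypoxia-NaCl, and the NRF2 list to 7480.0, 8670.0 and 9870.0 CPM in hypoxia-lactate and 6910.0, 7410.0 and 6630.0 CPM in hypoxia-NaCl. Hypoxia-lactate 3 had the highest sum of both lists, yet the lowest level of the 6 libraries for Slc7a11, Chac1, Asns, Gclm and Nqo1. Slc7a11, on both lists, encodes the cystine transporter that feeds glutathione synthesis, and had 56.4, 90.9 and 9.73 CPM in hypoxia-lactate and 34.0, 33.9 and 19.9 CPM in hypoxia-NaCl. Its first 2 lactate libraries were the highest and hypoxia-lactate 3 the lowest of the 6, and the log2 value was 1.34 ± 0.24 without it (edgeR BH-adjusted p = 0.107) and 0.84 ± 0.53 with it (adjusted p = 0.529). Chac1, which degrades glutathione, had 2.79, 8.67 and 0 CPM in hypoxia-lactate and 1.26, 2.33 and 0.804 CPM in hypoxia-NaCl. Asns, asparagine synthetase, had 12.4, 29.6 and 1.72 CPM in hypoxia-lactate and 11.3, 16.4 and 7.11 CPM in hypoxia-NaCl, with library 2 highest in both groups. The same order held for the NRF2 targets Gclm, a subunit of the enzyme that makes the glutathione precursor, with 224, 373 and 89.4 CPM in hypoxia-lactate and 173, 241 and 128 CPM in hypoxia-NaCl, and Nqo1, a quinone reductase, with 73.0, 133 and 16.0 CPM and 42.0, 82.4 and 26.8 CPM. Prdx5, a peroxide-reducing peroxiredoxin, had 260.0, 248 and 453 CPM in hypoxia-lactate and 161, 150.0 and 177 CPM in hypoxia-NaCl, without overlap.

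The promoter of Slc7a11 is shown because the gene is on both lists. It lies on the minus strand at chr3:50443614-50443863 (GRCm38.p6, RefSeq, 250 bases before the start). TGATGNAA, the core of the amino acid response element that ATF4 binds, was searched on both strands after the values were seen. There are 2 matches, in capitals, 1 on each strand, where 3.45% of 32851 promoters hold at least 1. For the NRF2 list, TGACNNNGC was searched too, and the window held 0 matches, where 10.2% of promoters hold it.

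Slc7a11: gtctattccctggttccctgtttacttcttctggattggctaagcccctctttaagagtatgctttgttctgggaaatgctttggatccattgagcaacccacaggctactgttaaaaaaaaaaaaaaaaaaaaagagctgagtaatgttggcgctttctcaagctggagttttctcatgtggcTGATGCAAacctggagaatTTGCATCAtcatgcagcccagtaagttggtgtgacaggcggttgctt

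The 3 genes of the Hspa1 cluster had higher levels in all 3 lactate libraries, while the heat shock list as a whole was mixed. Hspa1a, an HSP70 chaperone induced when proteins misfold, had 186, 183 and 395 CPM in hypoxia-lactate and 102, 98.1 and 55.7 CPM in hypoxia-NaCl. The neighbouring copy Hspa1b had 153, 144 and 187 CPM in hypoxia-lactate and 76.2, 79.9 and 38.9 CPM in hypoxia-NaCl, and Hspa1l, another gene of the cluster, had 28.7, 26.0 and 26.6 CPM and 13.1, 11.2 and 9.68 CPM in the same order. None of the 3 overlapped between groups. Without hypoxia-lactate 3 the log2 values were 1.12 ± 0.26 for Hspa1a, 1.20 ± 0.31 for Hspa1b and 1.27 ± 0.21 for Hspa1l, with edgeR BH-adjusted p of 0.215, 0.271 and 0.07 in that order, and with all libraries they were 1.58 ± 0.34, 1.31 ± 0.31 and 1.25 ± 0.26. Hspa1a and Hspa1b were 2 of the 3 genes among 14 tested on the cytosolic heat shock list that were higher at an unadjusted p below 0.05 (21.4%, against 4.23% of all genes), and the median of the list was 0.18, with 5 of 14 negative. With all libraries 3 were higher too (21.4%, against 7.31% of all genes) and the median was 0.34. All 3 lactate libraries lay above all of NaCl for 5 of 14, against 6.69% of all genes. Hspa1l is not on that list and was named after its values were seen. Hspa1a and Hspa1b are nearly identical, so counts may be split between them, and the 3 genes are not independent. In the endoplasmic reticulum 16 of 18 folding genes had positive values without hypoxia-lactate 3, against 50.9% of all genes, and 1 was higher at an unadjusted p below 0.05 (5.56%, against 4.23%). With all libraries 15 were positive and 2 higher (11.1%, against 7.31% of all genes). The 1 member was Creld2, a stress-induced folding factor, with 31.4, 31.9 and 72.7 CPM in hypoxia-lactate and 20.9, 25.2 and 21.4 CPM in hypoxia-NaCl.

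The Hspa1a promoter is shown for its heat shock element and for its likeness to that of Hspa1b. In RefSeq's GRCm38.p6 it lies on the minus strand at chr17:34972157-34972406, and that of Hspa1b at chr17:34959239-34959488. Over 250 bases, 247 are the same in both (98.8%). Each holds 1 GAANNTTC, the inverted repeat at the core of a heat shock element, in capitals here, searched on both strands after the values were seen and found in 6.69% of promoters. Hspa1l, which starts next to Hspa1a on the plus strand, held none, and the window of Cd33, which fell, held 1.

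Hspa1a: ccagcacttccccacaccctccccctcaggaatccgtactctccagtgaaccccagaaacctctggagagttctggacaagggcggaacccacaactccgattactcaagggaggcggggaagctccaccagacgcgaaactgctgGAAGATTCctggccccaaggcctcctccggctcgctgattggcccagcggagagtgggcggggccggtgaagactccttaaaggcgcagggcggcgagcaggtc

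Matrix and vascular factors had members on both sides. Of 30 tested genes 3 were higher and 4 lower at an unadjusted p below 0.05 without hypoxia-lactate 3 (10% and 13.3%, against 4.23% and 5.17% of all genes). With all libraries 3 were higher and 1 lower (10% and 3.33%, against 7.31% and 4.08% of all genes). Spp1, osteopontin, a secreted matrix protein of tumour-associated macrophages, had 3570, 8430 and 1920 CPM in hypoxia-lactate and 1060, 2870 and 506 CPM in hypoxia-NaCl. Each lactate library was above the NaCl library of its own number, library 2 was highest and library 3 lowest in both groups, and the groups overlapped. The log2 value of Spp1 was 2.03 ± 0.59 without hypoxia-lactate 3 (edgeR BH-adjusted p = 0.335) and 1.65 ± 0.63 with it (adjusted p = 0.432). Mmp19, a matrix metalloproteinase, had 117, 130.0 and 67.9 CPM in hypoxia-lactate and 84.1, 76.0 and 60.8 CPM in hypoxia-NaCl. Plau, the plasminogen activator urokinase, had 0.413, 2.18 and 0.356 CPM in hypoxia-lactate and 4.08, 4.97 and 9.90 CPM in hypoxia-NaCl, every lactate value under every NaCl value (log2 value -2.29 ± 0.80 without hypoxia-lactate 3, edgeR BH-adjusted p = 0.401, and -2.65 ± 0.79 with it). Ctsk, the collagen-degrading cathepsin K, had 279, 237 and 550.0 CPM in hypoxia-lactate and 153, 122 and 157 CPM in hypoxia-NaCl, with no overlap and a log2 value of 0.85 ± 0.22 without hypoxia-lactate 3 (edgeR BH-adjusted p = 0.278) and 1.30 ± 0.31 with it. Ctsk is also an osteoclast marker: the 7 osteoclast markers, Ctsk included, summed to 487, 336 and 786 CPM in hypoxia-lactate and 379, 233 and 487 CPM in hypoxia-NaCl, Calcr was at 0 counts throughout, and their part in the result was not tested. Of the other genes with small p, named after their values were seen, Serpinb9, an inhibitor of granzyme B, had 27.7, 47.1 and 24.4 CPM in hypoxia-lactate and 9.85, 12.9 and 14.5 CPM in hypoxia-NaCl. The circadian repressor Bhlhe41 had 200.0, 220.0 and 207 CPM in hypoxia-lactate and 131, 142 and 102 CPM in hypoxia-NaCl, again without overlap.

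Of 2 phosphatases that end MAP kinase signalling, 1 had high and 1 low lactate values. Dusp4 had 79.0, 80.4 and 151 CPM in hypoxia-lactate and 43.4, 49.2 and 31.5 CPM in hypoxia-NaCl, a log2 value of 0.95 ± 0.23 without hypoxia-lactate 3 (edgeR BH-adjusted p = 0.248) and 1.32 ± 0.30 with it. Dusp2 had 0.447, 0.75 and 0 CPM in hypoxia-lactate and 3.34, 1.83 and 2.22 CPM in hypoxia-NaCl, a log2 value of -2.04 ± 0.44 without hypoxia-lactate 3 (edgeR BH-adjusted p = 0.201) and -2.56 ± 0.75 with it. Neither overlapped between groups, and of 25 genes of their list 1 was higher and 1 lower at an unadjusted p below 0.05 without hypoxia-lactate 3 (4.0% each, against 4.23% and 5.17% of all genes) and 3 and 1 with it.

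Mitosis genes were mostly lower in value, almost without exception when hypoxia-lactate 3 was left out. Without hypoxia-lactate 3, 25 of 26 had a negative log2 value and the median was -0.52, with 7 lower at an unadjusted p below 0.05 (26.9%, against 5.17% of all genes). Over all genes 50.9% of values were positive. With all libraries 22 were negative and 4 positive, 7 were lower at that p (26.9%, against 4.08% of all genes) and the median was -0.73. The list summed to 578, 606 and 724 CPM in hypoxia-lactate and 868, 964 and 616 CPM in hypoxia-NaCl, groups that overlapped. All lactate libraries lay under all NaCl libraries for 11 of 26, against 9.3% of all genes. Cdk1, the kinase that drives entry into mitosis, had 16.8, 15.9 and 9.55 CPM in hypoxia-lactate and 27.2, 33.3 and 23.0 CPM in hypoxia-NaCl, with no overlap and a log2 value of -0.76 ± 0.26 without hypoxia-lactate 3 (edgeR BH-adjusted p = 0.401) and -0.98 ± 0.30 with it. Among 28 DNA replication genes 1 was higher and 2 lower at an unadjusted p below 0.05 in both fits (3.57% and 7.14%). With all libraries 7.31% of all genes were higher and 4.08% lower. The shares of the list were near the 4.23% and 5.17% of all genes without hypoxia-lactate 3. In the fit without that library 21 of 28 were negative, where 50.9% of all genes were positive. The lower member Mcm4, of the replicative helicase, had 14.6, 16.2 and 21.9 CPM in hypoxia-lactate and 24.4, 23.4 and 22.2 CPM in hypoxia-NaCl. The higher one, Pcna, the sliding clamp of DNA polymerase, had 265, 271 and 259 CPM in hypoxia-lactate and 160.0, 190.0 and 170.0 CPM in hypoxia-NaCl. Pcna thus lay above in every lactate library while Cdk1 lay below.

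**Figure D3:**
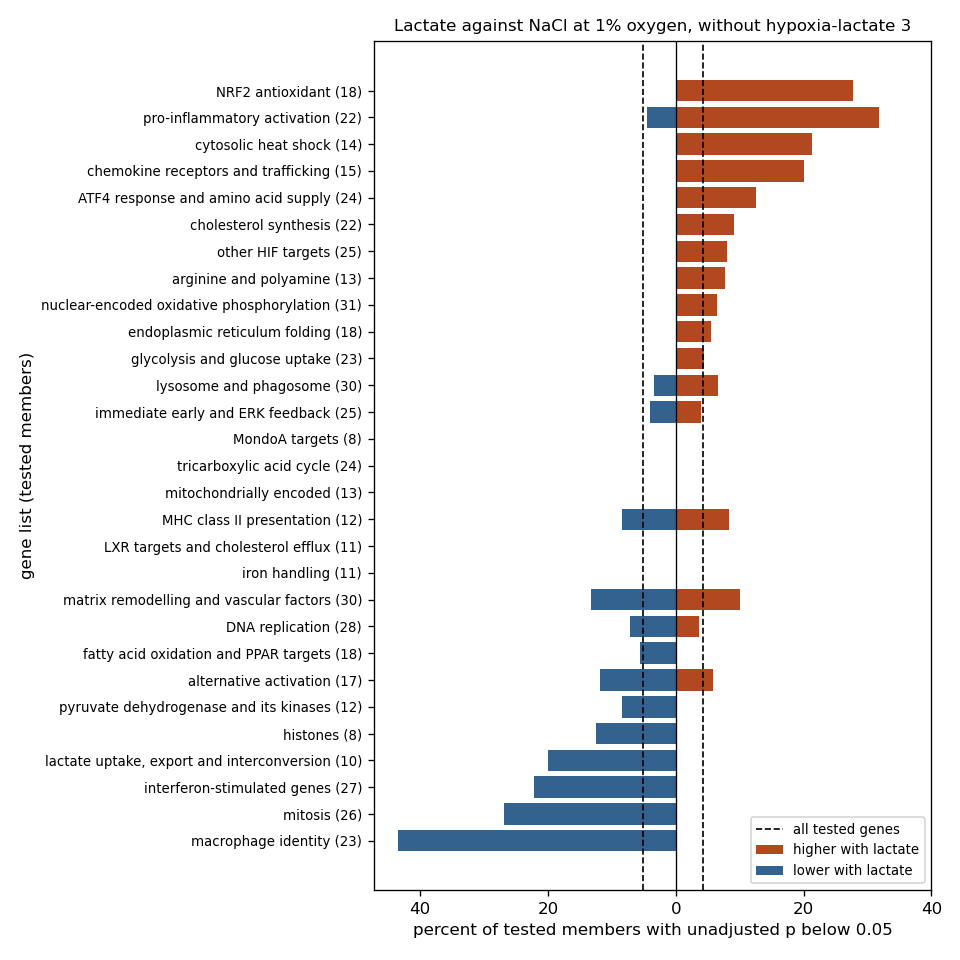
Share of tested members of each gene list with an unadjusted p below 0.05 for lactate against NaCl at 1% oxygen without hypoxia-lactate 3, higher members to the right and lower members to the left, for lists with at least 8 tested members. Dashed lines mark 4.23% higher and 5.17% lower over all 15088 genes; the macrophage identity list reaches 43.5% lower and the pro-inflammatory list 31.8% higher, while several metabolic lists have no bar.

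The lactate effect in ordinary oxygen rests on 6 other libraries and can be set beside that at 1% oxygen with no shared sample. In the fit without hypoxia-lactate 3, 5 genes were called in normoxia (0.0331% of those tested): Ifitm6, an interferon-induced membrane protein, Hspa1a, Hspa1l and Hspa1b rose and Cd33 fell. With all 12 libraries edgeR called 0 there (0.0%), with 227 genes (1.55%) at an unadjusted p below 0.05. Cd33 had 7.76, 5.39 and 6.89 CPM in normoxia-lactate and 16.6, 21.4 and 18.6 CPM in normoxia-NaCl, a log2 change of -1.49 ± 0.20, against -1.53 ± 0.23 at 1% oxygen. Hspa1a had 74.5, 109 and 60.1 CPM in normoxia-lactate and 19.1, 22.6 and 19.5 CPM in normoxia-NaCl, a log2 change of 1.99 ± 0.24. Procr, Layn, Rab3il1 and Mcrip1 had normoxia log2 values of 0.70 ± 0.15, 0.43 ± 0.17, -0.93 ± 0.20 and -0.54 ± 0.12, the same sign as at 1% oxygen. Gm14111 alone of the 6 had the opposite sign, with 3.58, 5.65 and 2.71 CPM in normoxia-lactate and 10.9, 5.79 and 3.42 CPM in normoxia-NaCl. These groups overlapped, and the 10.9 CPM came from normoxia-NaCl 1. Its quality weight of 0.29859 was the lowest after that of hypoxia-lactate 3. Of the 638 genes higher at 1% oxygen at an unadjusted p below 0.05, 79.8% had a positive value in normoxia, against 52.6% of all genes. Of the 780 lower genes 67.6% had a negative value in normoxia. With all libraries these shares were 59.5% of 1068 higher and 60.7% of 596 lower genes, where 51.3% of all genes were positive in normoxia.

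The difference between the 2 lactate effects was tested directly. It was called for 0 genes by edgeR both with all libraries and without hypoxia-lactate 3 (0.0% each; smallest BH-adjusted p 0.902 and 0.254), with 497 (3.4%) and 609 (4.04%) genes at an unadjusted p below 0.05. DESeq2 called Gm14111 with all libraries, and limma-voom with quality weights called Gm14111 and Gm11353. Without hypoxia-lactate 3 DESeq2 called Gm14111, Gm11353 and Gm10364, and edgeR called Gm14111 when normoxia-NaCl 3 was left out too. Gm11353 and Gm10364 were also named after their values were seen. Gm11353 had 26.1, 34.9 and 62.3 CPM in hypoxia-lactate and 66.8, 71.0 and 71.8 CPM in hypoxia-NaCl. In mitosis genes 23 of 26 were lower in normoxia at an unadjusted p below 0.05 (4.13% of all genes were), with a median of -0.83, beside 7 and -0.52 at 1% oxygen. The macrophage identity list had 10 of 23 lower at both oxygen levels (43.5%), with medians of -0.20 in normoxia and -0.37 at 1% oxygen. Interferon-stimulated genes had 22 of 27 negative and 5 lower (18.5%) in normoxia, beside 24 and 6 at 1% oxygen. The ATF4 list had 3 of 24 positive in normoxia (52.6% of all genes were) and a median of -0.30, against 22 positive and 0.40 at 1% oxygen. The list summed to 1490, 1870 and 1370 CPM in normoxia-lactate. In normoxia-NaCl the sums were 2060, 1690 and 1610 CPM, with normoxia-NaCl 1 highest. Its members Chac1 and Asns had log2 differences between the effects of 2.33 ± 0.791 and 1.61 ± 0.556 (edgeR BH-adjusted p = 0.998 and 0.998) without hypoxia-lactate 3, and of 1.75 ± 1.45 and 1.09 ± 0.96 with it. Prpsap2, a subunit associated with phosphoribosyl pyrophosphate synthetase, had 6.98, 8.85 and 10.4 CPM in hypoxia-lactate and 17.9, 18.4 and 20.4 CPM in hypoxia-NaCl, and its log2 values were -1.25 ± 0.26 at 1% oxygen and -0.16 ± 0.22 in normoxia. That difference of -1.09 did not pass either (edgeR BH-adjusted p = 0.998).

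**Figure D4:**
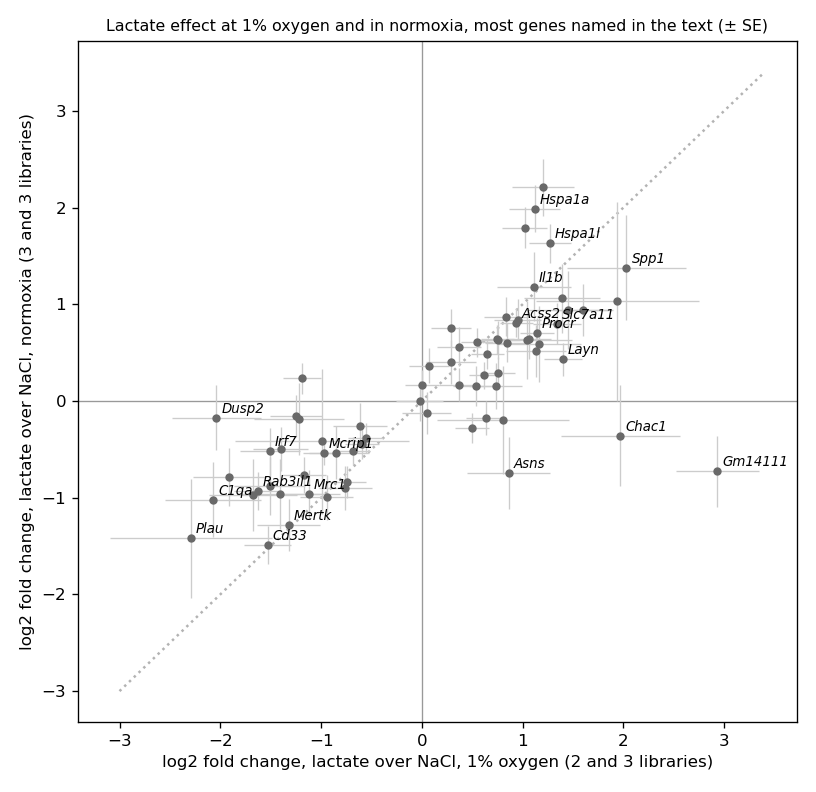
Log2 fold change of lactate over NaCl at 1% oxygen (horizontal) and in normoxia (vertical) for most of the genes named in the text, each with its SE, in the fit without hypoxia-lactate 3. Most points lie in the quadrants where both values have 1 sign, close to the dotted line of equal values for Cd33 (-1.53 and -1.49), and Gm14111, Chac1 and Asns lie where the signs differ.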

How the data were processed

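Libraries were made from bead-selected poly(A) RNA with 16 cycles of PCR and sequenced on an Ion Proton instrument, per the labels' protocols. Unnormalised read counts for each Ensembl gene were deposited by the authors; BWA, HTSeq and the mm9 build are named without versions per the submitters' processing notes. For the annotation release and the strand setting, nothing is given in the sources used. Genes that overlap or lie antisense to another, near-identical copies and processed pseudogenes are therefore uncertain, and reads without molecular identifiers are not independent molecules. A further 5 counters that name no gene were left out of library sizes and tests; they held 13.7% to 22.0% (outside genes), 8.34% to 18.4% (not unique), 0.361% to 0.442% (ambiguous), 2.02% to 5.48% (not aligned) and 0% (low quality) of reads. Symbols and biotypes were matched by identifier to GENCODE vM21 on GRCm38 and names tables, from which no gene coordinates were used: 32897 of 37620 identifiers and 14122 of 14616 tested genes had a symbol.

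Groups came from the sample labels. All 12 libraries were fitted with a mean per group in edgeR 4.0.16 under R 4.3.3 (TMM scaling, filterByExpr, quasi-likelihood test), then without hypoxia-lactate 3, with Benjamini-Hochberg adjustment over all tested genes at 0.05. CPM are on the TMM scale of all 12 libraries. An SE is the size of the log2 fold change divided by the root of its F statistic. The scripts were tested on simulated data. Alternatives used DESeq2 1.42.0, limma 3.58.1, other scaling and filters, the library number as a block and libraries left out.

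The comparison, the gene lists and the motifs were chosen with earlier results of these data known. The 39 lists hold 628 names, 3 of them without an identifier, and were described by counts and medians with no test. Genes were named where they passed the threshold and averaged 5 CPM or more, as leading members of a list, as genes of lactate handling and activation, or by the smallest p for the difference between lactate effects, and some are left out for length; the remaining named genes, other members of the lists included, were picked with their values known. Each group has libraries numbered 1 to 3 in its titles, but the deviations of same-numbered hypoxia libraries from their group means correlated at 0.0465, 0.297 and 0.0755, not all above the limit of 0.1, so the numbers were not taken to pair them. Promoters are those RefSeq gives for GRCm38.p6.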

Additional observations from a re-analysis of the deposited data

How the results depend on the processing

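With all libraries the count of called genes, 0 by edgeR as reported, was 6 without hypoxia-lactate 3, 112 by DESeq2, 16 with quality weights, 16 with the replicate block without hypoxia-lactate 3, 11 without both hypoxia-lactate 3 and normoxia-NaCl 1, and 3 in a fit of the 5 hypoxia libraries without hypoxia-lactate 3. The replicate block with all libraries, RLE and upper-quartile scaling, no filter, a 5 CPM filter, limma-voom and the 6 hypoxia libraries alone gave 0, and leaving out 1 library in turn gave 0 to 6. Members of the lists called were 0 as reported and 1, 12, 1, 3 and 1 in the first 5 of those settings. The difference between lactate effects had 0 calls, 1 by DESeq2 and 2 with quality weights; without hypoxia-lactate 3 it had 3 by DESeq2 and, with normoxia-NaCl 3 left out too, 1 by edgeR. Without hypoxia-lactate 3, and chosen after seeing the data, DESeq2 called 138 genes (all 6 among them), limma-voom 9 (4 of the 6), and RLE and upper-quartile scaling the same 6; leaving out another library beside it gave 0 to 5, and leaving out normoxia-NaCl 1 gave 11. The replicate block there called 16 genes, the 6 among them. Same-numbered libraries were not taken as pairs by the limit set, and of the 3 lactate libraries the first 2 correlated best with their own number. The check cannot show that the numbers carry nothing, since its hypoxia-lactate means include hypoxia-lactate 3. Summed MHC class II genes were lowest in library 2 of every group (5660, 7040, 6070 and 5900 CPM). Without hypoxia-lactate 3 the common coefficient of variation was 19.946% with the block and 24.309% without it. Whether the numbers mark shared material was not tested.

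Log2 values that changed sign with 1 library left out are given as ranges over all such settings: C1qa -2.07 to 0.20, Slc16a1 -0.66 to 0.0028, Ldha -0.0212 to 0.55, H2-Aa -0.99 to 0.15, Chac1 -0.0129 to 1.97, Asns -0.68 to 0.86, Nqo1 -0.16 to 1.12 and Gclm -0.19 to 0.73. C1qa was positive without hypoxia-NaCl 3 and, at 0.0415, without hypoxia-lactate 2; Slc16a1 and Ldha turned without hypoxia-lactate 3, and the other 5 without hypoxia-lactate 2. Slc16a1 was 0.0165 with the replicate block without hypoxia-lactate 3. Ldha was -0.0819 with that block, -0.0264 without normoxia-NaCl 1 too and -0.0289 in the 5 hypoxia libraries. By limma-voom Chac1 was -0.27 and Asns -0.14. The cause was not tested. Over the named genes and settings, 1518 values kept direction and side of the threshold, 34 passed it where the starting fit did not, 61 no longer passed it and 15 changed sign. None of these 15 was past the threshold. A group of 2 or 3 libraries with a median SE of 0.386 on the log2 scale (0.256 without hypoxia-lactate 3) limits what can be called. The dendritic cell marker list had no tested member at 5 CPM or more, so that setting gave it no value.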

Other observations

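Processed pseudogenes, copies of spliced transcripts whose reads can belong to their parent genes, differed from protein-coding genes as a class. Over 1464 tested processed pseudogenes the median log2 value of lactate against NaCl at 1% oxygen was -0.45 with all libraries, against 0.01 over 12051 protein-coding genes. Without hypoxia-lactate 3 it was -0.21 over 1566 pseudogenes, against 0.02 over 12305 protein-coding genes, and 11% of pseudogenes were lower at an unadjusted p below 0.05, against 4.13%. In normoxia the pseudogene median was 0.24, against -0.0091 for protein-coding genes. Of the 30 genes with the smallest p for the difference between the lactate effects without hypoxia-lactate 3, 22 were not protein-coding. Processed pseudogenes held 1.92%, 2.29% and 1.24% of counts in hypoxia-lactate and 2.14%, 2.48% and 2.58% in hypoxia-NaCl; the part of this share in the result was not tested.

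Some transcripts stood high in hypoxia-lactate 3 alone. Col27a1, a fibrillar collagen gene, had 0.482, 0.30 and 93.8 CPM in hypoxia-lactate and 0.285, 0.248 and 0.129 CPM in hypoxia-NaCl. The 8 fibroblast markers summed to 102, 46.3 and 99.6 CPM in hypoxia-lactate and 110.0, 54.7 and 28.2 CPM in hypoxia-NaCl, with Lum at 0 counts throughout, so hypoxia-lactate 3 was within the range of the other libraries for them.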
